A study of Mus musculus with 16 samples.

Results

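Mitosis and spindle genes were followed in murine B cell lymphomas: 39 genes for cyclins, mitotic kinases, the spindle checkpoint, kinetochores, motors and cell division. Their probes were taken by gene symbol alone, as the array probes whose annotated symbol is on that list. The list of 39 genes itself was chosen with earlier results of these data known. Of these genes 34 had a listed probe, 50 probes in all, among 16590 genes and 25697 probes on the array. Gene expression was measured in total RNA on Illumina bead arrays, 1 array for each of 8 tumours. The first group held 4 tumours of genotype Eµ-Myc, in which an immunoglobulin heavy chain enhancer drives the Myc oncogene in the B lineage. The second held 4 tumours that carried the same transgene and the Wrn Δhel allele on both copies, a deletion within the helicase region of Wrn, the gene mutated in Werner syndrome; these are called Wrn tumours here. Every tumour thus carried Eµ-Myc, all were labelled as strain C57B6, and no group was free of the transgene. The labels state neither the age of the animals nor whether each tumour came from its own animal, so a p-value here speaks only for the spread among these 8 samples, which may in part be technical. Tumour titles also carry a letter of unstated meaning: E is borne by Eµ-Myc tumours 1 and 3 along with tumours 2 and 4 of the Wrn group, and L by the rest.

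Entry into mitosis is driven by the kinase Cdk1 bound to cyclin B, which Cdc25 phosphatases switch on, with Plk1 and the Aurora kinases acting beside it. Chromosomes are then tied to spindle microtubules through kinetochores, and a checkpoint holds back the anaphase-promoting complex until every chromosome is attached. Release of that brake lets separase cut cohesin, after which kinesins and bundling proteins of the central spindle divide the cell. Most of these genes are transcribed in G2 and mitosis, so in a tumour their summed RNA follows the share of dividing cells. Lymphomas driven by Myc are known for fast division. In bulk tumour RNA fewer dividing cells and less RNA per dividing cell cannot be told apart.

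Promoters of such genes are known for a cell cycle homology element (CHR), through which the DREAM and B-Myb complexes act, and for CCAAT boxes bound by NF-Y. The 250 bases upstream of the RefSeq start sites (GRCm38.p6) were searched on both strands for TTTGAA or TTCGAA as a CHR and for CCAAT; matches of either motif were counted whether or not they overlapped the other. Windows were listed for 33 of the 39 genes, 35 windows in all. A CHR was present in 13 windows (37.1%), against 17.1% of the 32851 windows of all genes. CCAAT stood in 27 (77.1%), against 33.8% of all windows, and at least 2 copies of it in 17 (48.6%), against 10.1%. Both motifs were found in 12 windows (34.3%), against 6.02% of all windows. Both motifs were thus more frequent than in all promoters, although most of the members' windows held no CHR, and the choice by symbol had not used them; a match is a string of letters, not a shown binding site. The sequences below are the 120 bases before the start, read 5′ to 3′ on the strand of the gene, with each CHR and CCAAT match in capitals (TTCAAA and ATTGG are the same motifs on the opposite strand). They are shown for the tested members with both motifs in that stretch, and for Plk1 with CCAAT alone and Mad2l1 with neither.
Cdk1, chr10:69352913-69353032, minus strand: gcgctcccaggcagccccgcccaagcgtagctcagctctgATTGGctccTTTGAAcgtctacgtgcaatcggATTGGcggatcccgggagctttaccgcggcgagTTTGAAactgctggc
Cdc20, chr4:118437344-118437463, minus strand: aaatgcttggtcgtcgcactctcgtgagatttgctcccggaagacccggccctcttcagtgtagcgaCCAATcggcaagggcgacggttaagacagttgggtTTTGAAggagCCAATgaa
Espl1, chr15:102296173-102296292, plus strand: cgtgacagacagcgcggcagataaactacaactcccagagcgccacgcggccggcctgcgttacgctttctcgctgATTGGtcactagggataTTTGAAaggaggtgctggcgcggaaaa
Top2a, chr11:99024190-99024309, minus strand: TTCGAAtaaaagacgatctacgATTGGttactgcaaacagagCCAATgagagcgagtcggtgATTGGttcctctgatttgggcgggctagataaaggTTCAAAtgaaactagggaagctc
Kif11, chr19:37376262-37376381, plus strand: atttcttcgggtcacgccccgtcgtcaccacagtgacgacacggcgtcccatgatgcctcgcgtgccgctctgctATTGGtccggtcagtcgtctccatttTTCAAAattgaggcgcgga
Prc1, chr7:80294356-80294475, plus strand: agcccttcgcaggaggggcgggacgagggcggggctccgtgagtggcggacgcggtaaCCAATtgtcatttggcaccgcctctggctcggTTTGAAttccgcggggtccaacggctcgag
Plk1, chr7:122159315-122159434, plus strand: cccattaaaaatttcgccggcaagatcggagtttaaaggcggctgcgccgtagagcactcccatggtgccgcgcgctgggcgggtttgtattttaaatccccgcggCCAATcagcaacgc
Mad2l1, chr6:66535101-66535220, plus strand: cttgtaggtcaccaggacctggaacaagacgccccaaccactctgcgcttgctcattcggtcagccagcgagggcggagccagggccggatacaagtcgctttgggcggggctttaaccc
In Cdk1 the CHR matches began 71 and 15 bases before the start, and in Top2a 120 and 23 bases before it. In Cdc20 the CHR began 18 bases before the start, in Kif11 19, in Espl1 27 and in Prc1 30. A CCAAT box lay further upstream than that nearest CHR in each of these genes. Prc1 had another listed start, with a CCAAT box but no CHR in the 250 bases before it.

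On the log2 scale of the normalized arrays no member passed the test between the genotypes or between the letters after adjustment over all probes. Members did vary from tumour to tumour within each group, and they did so in several patterns rather than as one block. The clearest single difference was in Espl1, which encodes separase: it was higher in all 4 E tumours than in any L tumour, without passing the adjusted test. Letters were free of overlap in 1 of 33 tested member probes and in 5.01% of all tested probes.

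The arrays were alike in brightness, with median raw signals of 49.9 to 52.8 and 41.3% to 44.2% of probes detected, and no array repeated another (pairwise correlations over tested probes of 0.945 to 0.984). A Wrn probe detected on all arrays read 7.03 to 7.48 in Wrn tumours and 7.56 to 8.45 in Eµ-Myc tumours (log2 signal), a difference that did not pass the adjusted test (limma adjusted p = 0.973). The sources used here do not say whether that probe lies within the deletion. Of 9 B cell marker genes with a probe 8 were detected on at least 4 arrays, and their mean signal lay between 10.35 and 11.38 in every tumour; Pax5 was not detected on any array. Markers of macrophages were also detected, 8 of 8, at 9.92 to 10.54 in Eµ-Myc tumours and 9.40 to 10.23 in Wrn tumours, all 8 of them lower in the mean of the Wrn tumours. Of 9 T cell markers with a probe 4 were detected on at least 4 arrays, with a mean signal of the list between 5.43 and 7.08 across tumours; Cd4 and Cd8a were not detected on any array. All 8 tested B cell markers had higher means in Wrn tumours (median log2 difference 0.20, macrophage markers -0.51). Lower means there were found for 3 of 3 erythroid (-0.77), 6 of 7 granulocyte (-0.33) and 3 of 4 T cell markers (-0.30). Stromal markers split 3 to 3, and 4 of 6 endothelial markers were higher.

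Of the 34 genes with a probe, 24 entered the tests, because a probe of theirs was detected (detection p under 0.01) on 4 or more arrays. Among the 50 probes 33 were tested, 30 of them detected on all 8 arrays. No listed probe stood for the proliferation marker Mki67, for cyclin B1 (Ccnb1), for Aurora B (Aurkb), for the kinetochore protein Cenpf or for Racgap1, which acts in the central spindle, and these are not analysed here. Cyclins A2 and B2 (Ccna2, Ccnb2), Bub1, Cenpe, Ect2, Hmmr, Kif20a, Nuf2 and Ube2c had probes that were not detected on any array. Ttk, the checkpoint kinase Mps1, was detected on 1 array, that of Eµ-Myc tumour 4, at 5.26. In total 16 of the member probes (32%) were never detected, against 48.9% of all probes, and their signals of 4.13 to 4.71 have no order. That these lay at background does not show that the transcripts were absent. For Anln, Cdc25c, Cdk1, Ndc80 and Nusap1 one probe was tested while another was never detected, so detection depended on the probe. The brightest tested probe stands for a gene below, and levels of different probes are not compared.

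Cdk1, the kinase that starts mitosis, read 9.94, 10.74, 10.41 and 10.34 in Eµ-Myc tumours 1 to 4 and 10.92, 10.35, 10.08 and 10.37 in Wrn tumours 1 to 4 (log2 signal). It was highest in Wrn tumour 1 and lowest in Eµ-Myc tumour 1, and the genotypes overlapped. Its genotype difference was 0.073 ± 0.23 (Wrn minus Eµ-Myc, SE, n = 4 each, limma adjusted p = 0.987), with a sign that turned to -0.066 without Eµ-Myc tumour 1 and to -0.090 without Wrn tumour 1. On the deposited linear lumi scale the same probe ran from 968.7 in Eµ-Myc tumour 1 to 1920 in Wrn tumour 1. The phosphatases that activate Cdk1 ranged less: Cdc25b from 6.78 to 7.27 and Cdc25c from 7.30 to 7.86. Cdc25b was lowest in Wrn tumour 3, and Cdc25c was highest in Eµ-Myc tumour 2. Both tested Cdc25c probes were lowest in Eµ-Myc tumour 3 and highest in Eµ-Myc tumour 2.

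Plk1, the kinase needed for spindle assembly and cytokinesis, read 10.57, 10.62, 10.86 and 10.42 in Eµ-Myc tumours 1 to 4 and 10.18, 10.60, 10.21 and 10.79 in Wrn tumours 1 to 4. Aurka, Aurora A kinase of the spindle poles, read 9.86, 9.93, 10.003 and 9.51 in the Eµ-Myc tumours and 9.60, 9.82, 9.37 and 10.05 in the Wrn tumours. Both kinases were high in the E tumours of either genotype and low in Wrn tumours 1 and 3, which carry L, although Eµ-Myc tumour 2, also L, kept E and L from separating. Between genotypes Plk1 differed by -0.17 ± 0.20 (SE, limma adjusted p = 0.973), and by -0.084 without Wrn tumour 1 and -0.29 without Wrn tumour 4.

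Bub1b, the checkpoint protein BubR1, read 9.29, 9.54, 9.87 and 9.01 in Eµ-Myc tumours 1 to 4 and 9.01, 9.35, 9.05 and 9.08 in Wrn tumours 1 to 4. Eµ-Myc tumour 3 was the highest, and the genotype difference of -0.31 ± 0.21 (SE, limma adjusted p = 0.973) became -0.16 without it. Mad2l1, which encodes the checkpoint protein Mad2, read 10.28, 10.64, 10.14 and 10.37 in the Eµ-Myc tumours and 10.75, 10.29, 10.28 and 10.22 in the Wrn tumours. Wrn tumour 1 stood above the other Wrn tumours in Mad2l1 and at the bottom in Bub1b, at 9.01 like Eµ-Myc tumour 4. Eµ-Myc tumour 3 went the other way, as the highest of the 8 tumours in Bub1b and the lowest in Mad2l1. These checkpoint genes thus parted in Wrn tumour 1 and in Eµ-Myc tumour 3.

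Espl1, separase, which cuts cohesin at anaphase, read 9.13, 8.55, 9.02 and 8.42 in Eµ-Myc tumours 1 to 4 and 8.58, 8.84, 8.66 and 9.09 in Wrn tumours 1 to 4. Sorted by letter, the E tumours lay between 8.84 and 9.13 and the L tumours between 8.42 and 8.66, and they did not overlap. The letters did not overlap in 5.01% of all tested probes either. Pttg1, securin, the inhibitor of separase, was detected on 5 of 8 arrays and read 4.98, 5.87, 4.79 and 4.96 in the Eµ-Myc tumours and 4.78, 4.93, 4.47 and 4.76 in the Wrn tumours. Eµ-Myc tumour 2 stood apart, and the genotype difference of -0.41 ± 0.24 (SE, limma adjusted p = 0.973) became -0.17 without it. The value also moved with the scale, to -0.90 on the log2 of the lumi values and to -0.21 with an offset of 50. Cdc20, which activates the anaphase-promoting complex, ran from 11.27 in Wrn tumour 3 to 11.65 in Wrn tumour 2 on its brightest probe, a range of 0.38. All 4 of its probes were tested, and the others ranged by 0.42, 0.83 and 0.85 and were highest in Eµ-Myc tumour 1, so its probes disagree on how much it varied.

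Cenpa, the histone variant of centromeres, read 13.13, 13.16, 13.23 and 13.89 in Eµ-Myc tumours 1 to 4 and 13.02, 13.12, 12.93 and 13.48 in Wrn tumours 1 to 4. Its genotype difference of -0.21 ± 0.22 (SE, limma adjusted p = 0.973) became -0.035 without Eµ-Myc tumour 4, and leaving out Wrn tumour 4 gave -0.33. Ndc80 and Spc25, subunits of the complex that binds kinetochores to microtubules, ranged from 7.74 to 8.37 and from 6.39 to 7.60. Both were lowest in Eµ-Myc tumour 1. The second Spc25 probe, which ranged from 6.38 to 7.46, also had its highest value in Wrn tumour 1.

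The chromosomal passenger complex corrects wrong attachments. Incenp, its scaffold, read 9.13, 9.75, 9.99 and 9.69 in Eµ-Myc tumours 1 to 4 and 8.89, 9.13, 9.35 and 9.80 in Wrn tumours 1 to 4. The difference of -0.35 ± 0.25 (SE, limma adjusted p = 0.973) was -0.21 without Wrn tumour 1 and -0.52 without Eµ-Myc tumour 1. Birc5, survivin, ranged from 10.68 in Wrn tumour 1 to 11.40 in Eµ-Myc tumour 3, and its other tested probes were highest and lowest in the same tumours, from 10.65 to 11.42 and from 10.12 to 10.86. Cdca8, borealin, stayed between 8.82 and 9.22. All 3 had lower means in the Wrn tumours, with differences from -0.35 to -0.12 on the log2 scale that did not pass the test.

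Kif11, the kinesin that pushes spindle poles apart, had the widest range on this scale: 7.79, 9.42, 9.02 and 8.49 in Eµ-Myc tumours 1 to 4 and 8.69, 8.57, 8.89 and 9.12 in Wrn tumours 1 to 4. On the linear lumi scale it ran from 206.1 to 668.2, a smaller ratio than that of the dim Pttg1 (5.3 to 42.6), whose range the offset compresses. Kif23, a kinesin of the central spindle, read 9.09, 10.05, 9.84 and 9.76 in the Eµ-Myc tumours but only 9.83 to 9.89 in the Wrn tumours. Kif11 and Kif23 were lowest in Eµ-Myc tumour 1 and highest in Eµ-Myc tumour 2. Kif2c, which takes microtubules apart at centromeres, ranged from 9.63 to 10.09. Prc1, which bundles microtubules of the central spindle, read 10.98, 12.01, 11.73 and 11.50 in Eµ-Myc tumours 1 to 4 and 11.42, 11.73, 11.39 and 11.72 in Wrn tumours 1 to 4. Nusap1, a microtubule-bundling protein near chromosomes, read 9.80, 10.74, 9.84 and 10.12 in the Eµ-Myc tumours and 10.79, 10.09, 9.998 and 10.31 in the Wrn tumours. Prc1 and Nusap1 shared their low value in Eµ-Myc tumour 1 and their high value in Eµ-Myc tumour 2, and parted in Wrn tumour 1, where Nusap1 was highest. A second, dim Nusap1 probe was also highest in Wrn tumour 1, at 5.68, and lowest in Eµ-Myc tumour 1, at 4.37. Tpx2, which activates Aurora A on the spindle, read 6.52, 7.08, 6.95 and 7.14 in the Eµ-Myc tumours and 6.75, 6.68, 6.33 and 6.69 in the Wrn tumours, a difference of -0.31 ± 0.19 (SE, limma adjusted p = 0.973).

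Anln, anillin of the cleavage furrow, ranged from 9.38 in Eµ-Myc tumour 1 to 10.18 in Wrn tumour 1. Top2a, the topoisomerase that untangles sister chromosomes, read 10.66, 11.32, 11.23 and 10.52 in Eµ-Myc tumours 1 to 4 and 11.76, 11.13, 11.44 and 11.21 in Wrn tumours 1 to 4. Eµ-Myc tumours 1 and 4 lay below all other tumours, while Eµ-Myc tumours 2 and 3 lay among the Wrn tumours. On the deposited linear lumi scale Top2a ran from 1452 in Eµ-Myc tumour 4 to 3441 in Wrn tumour 1.

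**Figure D1:**
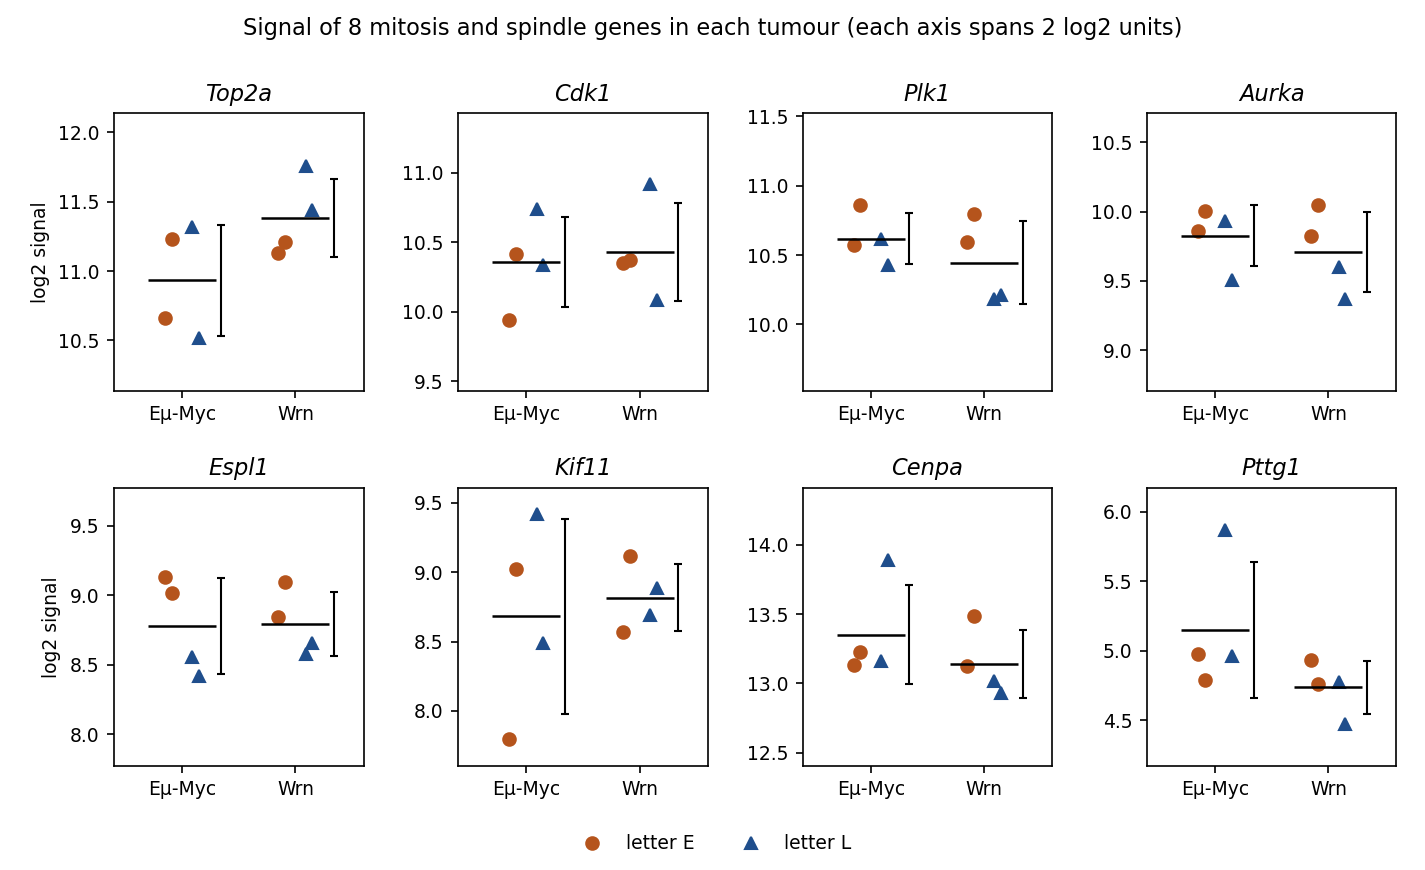
Log2 signal (vertical axis, each spanning 2 log2 units) of 8 members in the Eµ-Myc and Wrn tumours. Circles are E tumours, triangles L tumours, horizontal lines the means of 4 tumours and error bars their SD. Espl1 separates circles (8.84 to 9.13) from triangles (8.42 to 8.66), while in every panel the genotypes overlap. Letters were free of overlap in 5.01% of all tested probes.

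The comparison the study was built for set the Wrn tumours against the Eµ-Myc tumours. No mitosis or spindle gene was called: 0 of 24 genes, and 0 of their 33 tested probes, passed a Benjamini-Hochberg adjusted p under 0.05 in limma, where 0.0363% of all 11024 tested probes did. At an unadjusted p under 0.05 the count was also 0, with 3.76% of all probes called. In 0 of the 33 probes were the genotypes free of overlap, which held for 2.21% of all probes. Of the 24 genes 11 had a higher and 13 a lower mean in Wrn tumours, with a median difference of -0.055 (log2) beside 0.0069 over all tested genes. Top2a had the highest difference, 0.45 ± 0.23 (SE, 95% interval -0.067 to 0.97), from 10.93 ± 0.40 in Eµ-Myc to 11.38 ± 0.28 in Wrn tumours (SD, n = 4 each). Its limma p was 0.0818 before and 0.973 after adjustment. Pttg1 had the lowest, -0.41 (95% interval -0.95 to 0.13). With all 8 tumours the 95% intervals of all 24 genes stayed within 1 log2 unit of no difference on this scale. Changes of more than 2-fold lay outside them, narrowly for Top2a and Pttg1. Top2a differed by 0.58 ± 0.24 (SE) without Eµ-Myc tumour 2 and by 0.31 ± 0.23 without Eµ-Myc tumour 4. On the log2 of the lumi values it differed by 0.45 ± 0.25, so for Top2a that bound is not firm. Nor is it firm for Incenp, which differed by -0.52 ± 0.24 (SE) without Eµ-Myc tumour 1 and also without Wrn tumour 4. For the members as a whole the bound was not examined with a tumour left out. Smaller changes could have been missed with 4 tumours a group. The offset compresses dim probes, and the dim Pttg1 differed by -0.90 ± 0.45 on the log2 of the lumi values and by -0.87 ± 0.44 on square-rooted GUI values (SE), so for it such a change is not outside the range of the data.

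**Figure D2:**
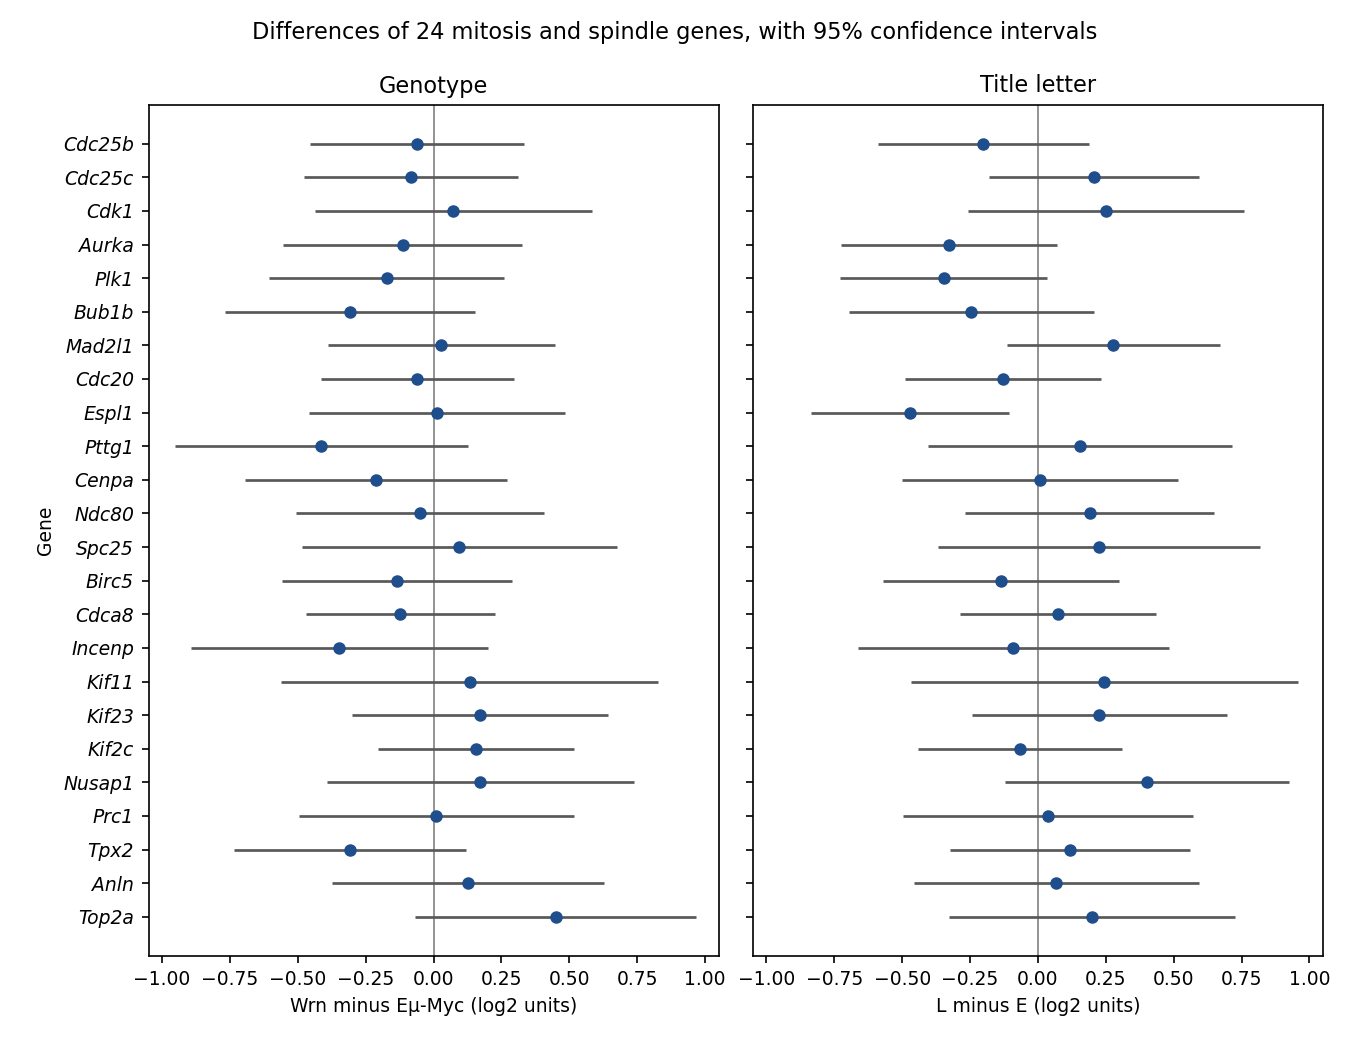
Difference in log2 signal of the 24 tested members between genotypes (left, Wrn minus Eµ-Myc) and between title letters (right, L minus E, with genotype in the model). Points are the differences and lines their 95% confidence intervals; Top2a stands highest on the left at 0.45, and on the right only the interval of Espl1 (-0.83 to -0.10) leaves out 0.

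Between the letters, with genotype in the model, Espl1 was the member with the lowest p. Its mean was 9.02 ± 0.13 in E and 8.55 ± 0.10 in L tumours (SD, n = 4 each), a difference of -0.47 ± 0.16 (L minus E, SE). Its limma p was 0.0169 before and 0.603 after adjustment. Under all the alternatives run its adjusted p lay between 0.510 and 0.923. Thus 0 of 24 members passed the adjusted test, where 0.0181% of all probes did. At an unadjusted p under 0.05, 1 of 33 probes was called, against 7.44% of all probes, and 1 of 33 had letters free of overlap, against 5.01%. The members' share was therefore not above the background of the comparison.

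Behind Espl1 came Plk1 with -0.35 ± 0.17 (95% interval -0.73 to 0.035), Aurka with -0.33 ± 0.18 (-0.73 to 0.069) and Nusap1 with 0.40 ± 0.23 (-0.12 to 0.92). This order holds for the brightest probe of each gene. Cdc20 differed by -0.13 ± 0.16 on that probe but by -0.46 ± 0.21 on its dimmest (SE). The limma p of the dimmest was 0.0519 before adjustment, beside 0.0701 for Plk1. Its remaining probes gave -0.12 and -0.099. Mad2l1 differed by 0.28 ± 0.17, Cdk1 by 0.25 ± 0.23, Bub1b by -0.25 ± 0.20 and Top2a by 0.20 ± 0.24 (SE, limma adjusted p from 0.703 for Plk1 to 0.872 for Top2a). Single tumours moved several of these values when left out. Nusap1 then ran from 0.23 to 0.60, Cdk1 from 0.11 to 0.44, Top2a from 0.085 to 0.40 and Bub1b from -0.35 to -0.12. The median over the 24 genes was 0.071 (log2), beside -0.0042 over all tested genes, with 15 higher and 9 lower in L tumours, and its sign was not stable: it was -0.058 without Eµ-Myc tumour 1 and -0.038 without Eµ-Myc tumour 2. With all 8 tumours the 24 95% intervals again stayed within 1 log2 unit, on the scale whose offset compresses dim probes such as Pttg1. That bound was not examined with a tumour left out, where Nusap1 reached 0.60 ± 0.22 (SE) without Wrn tumour 3. Markers of other cells moved with the letter: all 7 tested granulocyte markers, all 6 stromal and all 6 endothelial markers had lower means in L tumours, with medians of -1.65, -1.03 and -0.44. All 3 tested erythroid markers had higher means in L tumours (median 0.85), and 7 of 8 B cell markers lower ones (median -0.087). Mean granulocyte marker signal was 6.38 to 8.37 in E and 4.88 to 5.90 in L tumours, stromal 8.17 to 9.25 and 7.53 to 8.08, and endothelial 8.31 to 8.58 and 7.71 to 7.997. Their part in the Espl1 difference was not tested.

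Whether the letter difference itself differed between the genotypes could be asked with 2 tumours in each of the 4 cells of the design. Again 0 of 24 members passed the adjusted test, as did 0% of all probes, and 0 did so at an unadjusted p under 0.05, against 5.03% of all probes. Pttg1, Prc1 and Cenpa had the lowest p, and the letter difference in Wrn minus that in Eµ-Myc tumours was -0.75 ± 0.46, -0.72 ± 0.44 and -0.68 ± 0.42 (SE, limma adjusted p = 0.937 for each). These values rested on single tumours. That of Pttg1 was -0.30 without Eµ-Myc tumour 2 and -1.21 without Eµ-Myc tumour 4, and -1.63 on the log2 of the lumi values. Prc1 gave -0.34 without Eµ-Myc tumour 1 and -1.09 without Eµ-Myc tumour 3, and Cenpa -0.31 without Eµ-Myc tumour 4 and -1.04 without Eµ-Myc tumour 2. The next lowest p belonged to Tpx2, Kif23 and Incenp, with -0.52 ± 0.38, -0.43 ± 0.42 and -0.52 ± 0.51. Top2a gave 0.45 ± 0.47, Plk1 -0.30 ± 0.34 and Cdk1 -0.22 ± 0.47. Without Eµ-Myc tumour 1 the value was -0.052 for Kif23, -0.088 for Incenp, -0.15 for Plk1 and -0.31 for Tpx2, and Top2a was 0.055 without Eµ-Myc tumour 4 and 0.85 without Eµ-Myc tumour 2. Of the 24 intervals 17 reached beyond 1 log2 unit, so this comparison could have missed differences of 2-fold.

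Tumours of the same genotype and letter could differ from one another, as in Kif11 with 7.79 and 9.02 in Eµ-Myc tumours 1 and 3, both E. The SD over the 8 tumours, genotypes and letters together, had a median of 0.28 for the members and 0.32 for all tested genes (log2). The range over the 8 tumours had a median of 0.80 for the members, from 0.38 for the brightest Cdc20 probe to 1.62 for Kif11. Eµ-Myc tumour 2 stood above the mean in 20 of 24 members, with a median deviation of 0.27, where it stood above in 3672 of all 7665 tested genes. Eµ-Myc tumour 3 followed with 17 of 24, beside 3763 of all 7665 tested genes, and a median of 0.18. Eµ-Myc tumour 1 was the lowest tumour for 8 members (Anln, Cdk1, Kif11, Kif23, Ndc80, Nusap1, Prc1 and Spc25), and the lowest for 563 of 7665 genes. Wrn tumour 3 was the lowest for 6 members and the highest for none, with a median deviation of -0.16. Over all 7665 tested genes it was the lowest for 837 and the highest for 764.

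**Figure D3:**
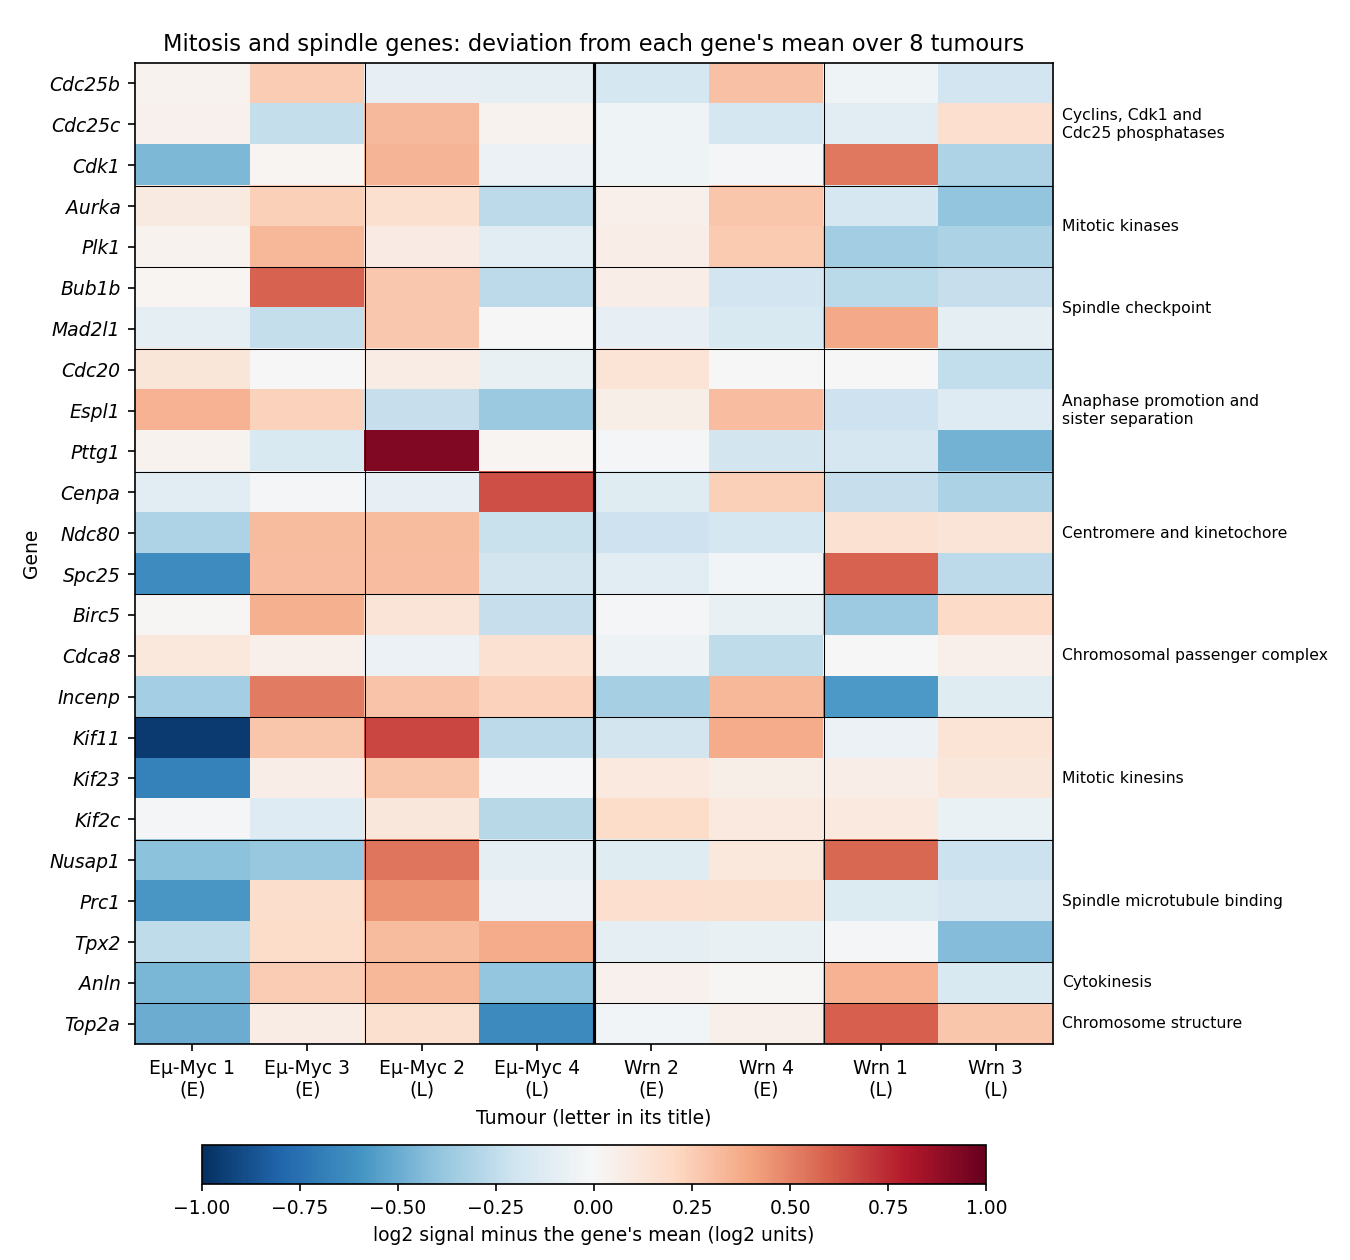
Deviation of each of the 24 tested members (rows, by role) from its own mean over the 8 tumours (columns, by genotype and letter), in log2 units; red is above and blue below the mean. Kif11, Kif23, Spc25, Nusap1 and Prc1 are blue in Eµ-Myc tumour 1, and Wrn tumour 1 holds the highest value of 6 genes and the lowest of 4. Over all 7665 tested genes Wrn tumour 1 was the highest for 1173 and the lowest for 1142.

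In Wrn tumour 1 the members did not rise and fall as a block. That tumour was the highest for Anln, Cdk1, Mad2l1, Nusap1, Spc25 and Top2a and the lowest for Birc5, Bub1b, Incenp and Plk1. It was also the highest for 1173 and the lowest for 1142 of all 7665 tested genes. Extremes at both ends were thus not particular to the members. Its low in Bub1b was close to the value in Eµ-Myc tumour 4 (9.01 in both). Over the 276 pairs of members the median Pearson correlation across the 8 tumours was 0.166 (Spearman 0.167), with 65.9% of pairs above 0. For DNA replication genes it was 0.142, and over pairs of all tested genes 0.0002. These correlations describe pairs that share the same 8 arrays and are not independent.

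Other gene lists show how far the pattern by tumour reached. Across 20 tested genes of the spindle, motors and cytokinesis outside the members, Eµ-Myc tumour 1 was again low (median deviation -0.24, 2 of 20 above the mean) and Eµ-Myc tumour 2 high (0.24, 16 of 20). The other kinetochore and checkpoint genes were low in Eµ-Myc tumour 1 (-0.19) but high in Wrn tumour 3 (0.19, 18 of 20), where the members were low. DNA replication genes, which mark S phase, were lowest in Eµ-Myc tumour 4 (-0.22) and highest in Wrn tumour 1 (0.20), and in Eµ-Myc tumour 2 they stood at -0.11. Of all 7665 tested genes, 3906 stood above the mean in Eµ-Myc tumour 1, 3672 in Eµ-Myc tumour 2 and 3817 in Wrn tumour 3. The difference between these lists was not tested.

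**Figure D4:**
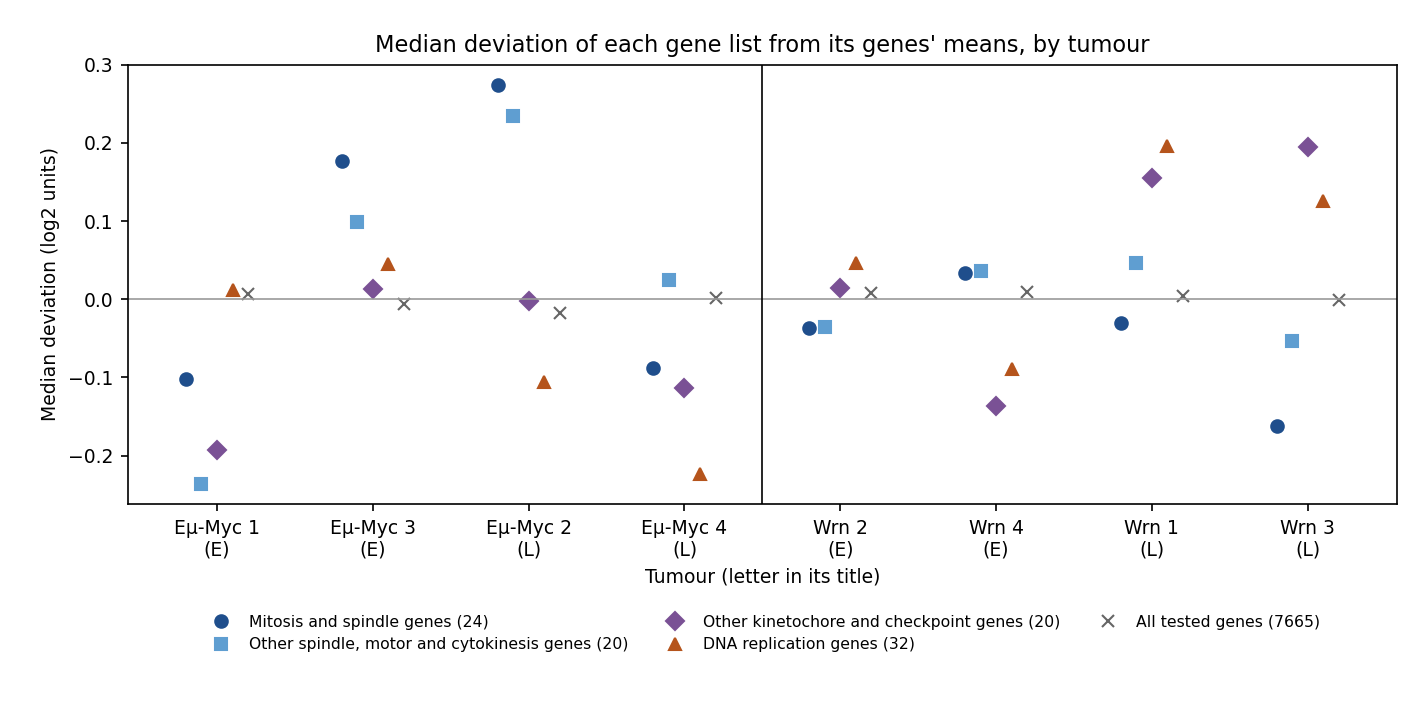
Median deviation (log2 units) of 4 gene lists and of all tested genes from their genes' means, in each of the 8 tumours, with the number of tested genes in brackets. Mitosis and spindle genes peak in Eµ-Myc tumour 2 (0.27), DNA replication genes in Wrn tumour 1 (0.20), and all tested genes stay near 0.

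Between genotypes, none of the tested genes of the other mitosis lists passed the adjusted test either, and the adjusted p was 0.973 for each gene named with a genotype difference here. The 5 tested condensin subunits, which compact chromosomes, all had higher means in Wrn tumours (median 0.29), with Ncapd2 at 0.29 ± 0.18 (SE). Among 9 genes of cohesin and its regulators the median was 0.19, and the cohesin loader Mau2 differed by 0.53 ± 0.22. The 20 other kinetochore genes had a median of 0.082, with Zwilch, of the complex that recruits dynein, at 0.47 ± 0.18. In the list of other spindle genes the median was -0.030, and Stmn1, stathmin, which destabilizes microtubules, differed by 0.38 ± 0.20. The 11 genes of the anaphase-promoting complex had a median of -0.034, with its subunit Cdc16 at 0.29 ± 0.23. Of the 6 FoxM1, MuvB and B-Myb genes, which control transcription in G2, Mybl2 (B-Myb) differed by -0.44 ± 0.21 and the median was -0.051. The 4 genes that restrain or support Cdk1 had a median of 0.13, with the inhibitory kinase Pkmyt1 at 0.40 ± 0.21. DNA replication genes had higher means in Wrn tumours in 26 of 32 cases, beside 3918 of all 7665 tested genes, by a median of 0.075.

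Between letters 17 of the 20 other spindle genes had higher means in L tumours (median 0.16), beside 3779 of all 7665 tested genes. Gtse1, a microtubule-binding protein of G2 and mitosis, went the other way, by -0.52 ± 0.17 (L minus E, SE, limma adjusted p = 0.587). By median deviation the list of other spindle genes was lowest in Eµ-Myc tumour 1, an E tumour (-0.24). It was highest in Eµ-Myc tumour 2, an L tumour (0.24). Its letter difference was not examined with either tumour left out. The lowest p of the remaining lists belonged to Pds5b of cohesin (0.42 ± 0.17), the Anapc2 subunit (-0.67 ± 0.30), the kinetochore protein Dsn1 (0.35 ± 0.20), the phosphatase Cdc25a (0.24 ± 0.18), condensin II subunit Ncapg2 (-0.26 ± 0.21) and the pocket protein gene Rbl1 (0.16 ± 0.21). List medians were 0.20 for cohesin, 0.14 for the anaphase-promoting complex, 0.15 for other kinetochore genes, 0.22 for genes around Cdk1, -0.063 for condensin and 0.093 for the FoxM1 and B-Myb list. None of these genes passed the adjusted test.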

How the data were processed

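Each tumour was deposited under 2 processings and counted once, so n is 4 per genotype and 4 per letter. Per the file headers, the non-normalized table gives for every probe an average bead signal, a linear intensity, with its detection p-value. The lumi table, as deposited by the authors, is a linear intensity from which background was subtracted, since 26.3% to 26.4% of its values are negative. The Illumina GUI table, as deposited, is a score; for probes with lumi values over 1000, its square root and the lumi log2 differ by at most 0.0102. The design had assumed linear or log2 values, so square roots were tested. The sources used here give no settings or versions for either table. The tables name probes differently and were joined by ranks over the 8 arrays, 25697 one to one. Symbols came from the platform annotation, updated to assembly GRCm38.p6 (23978 probes with a symbol, 1719 without).

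Normalization used limma 3.58.1 (R 4.3.3; neqc with offset 16, quantile, log2), and 11024 probes of 7665 genes detected at p under 0.01 on at least 4 arrays were tested with lmFit and eBayes, two-sided, adjusted by Benjamini-Hochberg over all. The offset understates changes of dim probes. The fit was tested on simulated data. Promoter windows were credited to RefSeq and searched in Python 3.11.15. Alternatives were other normalizations, filters, models, probes for a gene and each tumour left out. The number of arrays limits the precision. Members, gene lists and the rule for named genes (Mki67, Top2a, Ccnb1, Cdk1, Plk1 and Aurkb where measured, the 6 members with the lowest p in each comparison, and the lowest-p gene of each other list) were chosen with earlier results of these data known.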

Additional observations from a re-analysis of the deposited data

Results flagged for a closer look

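In each of the 24 tested genes the 4 tumours of each genotype were examined, 48 groups in all, for a tumour far from the others of its group, and 2 groups had one; chance gives about 1 in 20. Cenpa read 13.89 in Eµ-Myc tumour 4, where the other Eµ-Myc tumours lay between 13.13 and 13.23. Mad2l1 read 10.75 in Wrn tumour 1, where the other Wrn tumours lay between 10.22 and 10.29. Each gene has 1 probe on the array, so no second probe bears on either value.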

How the results depend on the processing

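No member passed the adjusted test in any comparison under any alternative run, and the lowest adjusted p of a named member was 0.774 between genotypes, 0.510 between letters and 0.507 for the interaction. The members' median genotype difference ran from -0.10 to 0.0051 when each tumour was left out, and the letter median from -0.058 to 0.14. Of the named members only Cdk1 changed sign: its genotype difference ran from -0.090 to 0.20 and its interaction from -0.64 to 0.20 when each tumour was left out. Named one by one, it was -0.066 and 0.017 without Eµ-Myc tumour 1, -0.090 (genotype) without Wrn tumour 1 and 0.20 (interaction) without Wrn tumour 3; the cause was not tested. Counts over all probes were small and moved. Between genotypes 4 probes passed, 1 with detection on all 8 arrays or no filter, 2 with array weights, and 1 to 6 with a tumour left out. Between letters 2 passed, 0 on the lumi, GUI, offset 50, no background, all 8 arrays and no filter settings, 1 with median scaling or trend and robust eBayes, and 0 to 8 with a tumour left out. For the interaction 0 passed, 1 on lumi or GUI values and 0 to 2 with a tumour left out. Same-numbered tumours did not deviate together from their genotype means (correlations -0.0037, -0.18, -0.21 and -0.19). Each such pair joins an E with an L tumour, so a letter difference lowers these correlations. They therefore cannot show whether the numbers pair anything. With the replicate block 2 probes passed between genotypes and 0 between letters, and the member medians stayed at -0.055 and 0.071. The interaction could not be fitted with that block, since it is the contrast of replicates 1 and 3 against 2 and 4. Median scaling shifted the interaction of all genes to a median of -0.15.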
